A study of Mus musculus with 35 samples.

Results

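The response of mouse embryonic fibroblasts (MEFs) to the alkylating agent methyl methanesulfonate (MMS) was followed here from 8 h to 24 h of exposure, gene by gene, as the MMS effect at 24 h minus the MMS effect at 8 h. The members are 16 of the 35 arrays of the study, 4 each of control and MMS-treated cells at both times, and no measured value was used to choose them. The cells were primary wild-type MEFs of C57BL6/J mice, labelled as taken from embryos of day 15.5, passaged 2 times and grown in DMEM with 10% serum at 5% oxygen, while the study's methods name a slightly younger stage and more passages. Treated cells received MMS at 40 μg/mL in new medium and control cells new medium alone, so all 4 groups had a medium change. RNA was read on Affymetrix mouse arrays as log2 signal, on which 14135 of 18194 genes were tested, each by 1 probe set, the one with the highest mean. A signal under log2 4.40, the limit of the filter on low values, is near the lower end of the arrays. A fold against a group mean under it is thus given as a lower bound, with the limit in place of lower values. Effects in log2 are given as measured, also where a group mean lies under the limit. The labels do not say whether the 4 replicates of a group were separate cultures, so p-values measure only how far these samples lie apart, and precision is limited by how many arrays there are.

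MMS transfers methyl groups to DNA, RNA and proteins and reacts with glutathione. Cells that meet such damage use several stress programmes. NRF2 is a transcription factor that turns on genes for glutathione supply and detoxification. Proteins that misfold in the endoplasmic reticulum (ER) set off the unfolded protein response (UPR), which adds chaperones and degradation machinery and, through the kinase PERK, favours translation of the transcription factor ATF4. ATF4 then turns on genes for amino acid uptake and synthesis. Heat shock factors raise cytosolic chaperones, p53 raises cell cycle inhibitors and repair genes, and DNA damage checkpoints hold cells before mitosis. A programme may be switched off again while the agent's other effects persist, which is what a comparison of the effect at successive times can show. Each effect below is a log2 difference of MMS minus control at the same time, and the change of the effect is the 24 h value minus the 8 h value.

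The 8 h and 24 h arrays differed in more than MMS. The first principal component of the 16 arrays held 55.34% of the variance and separated 8 h from 24 h, and the second held 20.8% and separated control from MMS. The mean log2 signal of 16 macrophage markers was 8.79 to 8.94 in control cells and 8.28 to 8.45 in MMS-treated cells at 8 h, against 4.60 to 4.68 and 4.93 to 5.69 at 24 h, and that of 2 Y-linked genes was also higher at 8 h. The mean of 23 intestinal markers was 8.97 in MMS 24 h replicate 3, against 4.36 to 4.38 in the other MMS arrays of that time, and 5.29 in control 24 h replicate 4, against 4.46 to 4.56. All 14 fibroblast markers passed the filter on low signal, with a mean of 11.28 to 11.39 in control cells and 10.40 to 10.68 in MMS-treated cells over both times. The cultures read at 8 h and at 24 h may thus differ in their cells as well as in time, and these cannot be told apart, neither for the change of a gene within control or treated cells nor for the change of the MMS effect, which sets the response of the 8 h cultures against that of the 24 h cultures. In such bulk samples, fewer cells of a type and less RNA per cell cannot be told apart either.

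The MMS effect differed between 8 h and 24 h for 6442 genes (limma, adjusted p under 0.05 over all genes tested). It was higher at 24 h for 3299 genes, 23.3% of those tested, and lower for 3143, 22.2%. At least 2-fold, 788 were higher and 452 lower. Of these, 604 of the 788 and 331 of the 452 had moved more in treated than in control cells between the times. The other 184 and 121 had moved more in control cells. Over all 14135 genes tested, 9547 had moved more in treated and 4588 in control cells. In control cells alone, 26.5% of genes were higher and 34.8% lower at 24 h than at 8 h, and in MMS-treated cells 32.3% were higher and 44.3% lower. The MMS effect itself was called higher for 28.7% and lower for 25% of genes at 8 h, and higher for 25% and lower for 19.4% at 24 h. Counts of the gene lists below are to be read against these shares, and a count near them is not particular to its list. Of the calls in the change of the effect 51.21% were higher, and after each array was centred on its median over tested genes 37.2% were, since that scaling moved the median change over all genes by -0.12 from -0.03. Centred in this way, 44.76% of the calls at 24 h were higher in place of 56.32%.

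Genes were sorted by the pair of effects. Of 1683 genes called and at least 2-fold changed at 8 h or 24 h, 419 had a transient effect, present at 8 h and down to less than 25% of its log2 size at 24 h. Another 404 had a reduced effect, called at both times but smaller at 24 h, and 196 had a sustained effect, called at both times with no call for its change. A delayed effect, seen at 24 h with less than 25% of its size at 8 h, was found for 214 genes, and a grown effect, called at both times but larger at 24 h, for 220. The effect was reversed for 176 genes, called in opposite directions at the 2 times. The remaining 54 genes met none of these rules. The rules have edges. Sesn2 kept 24.92% of its effect and was called transient, and Arhgap24 kept 25.32% and was called reduced. Likewise, the effect of Col2a1 at 8 h was 24.84% of that at 24 h (delayed) and that of Sh3yl1 25.12% (grown).

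**Figure D1:**
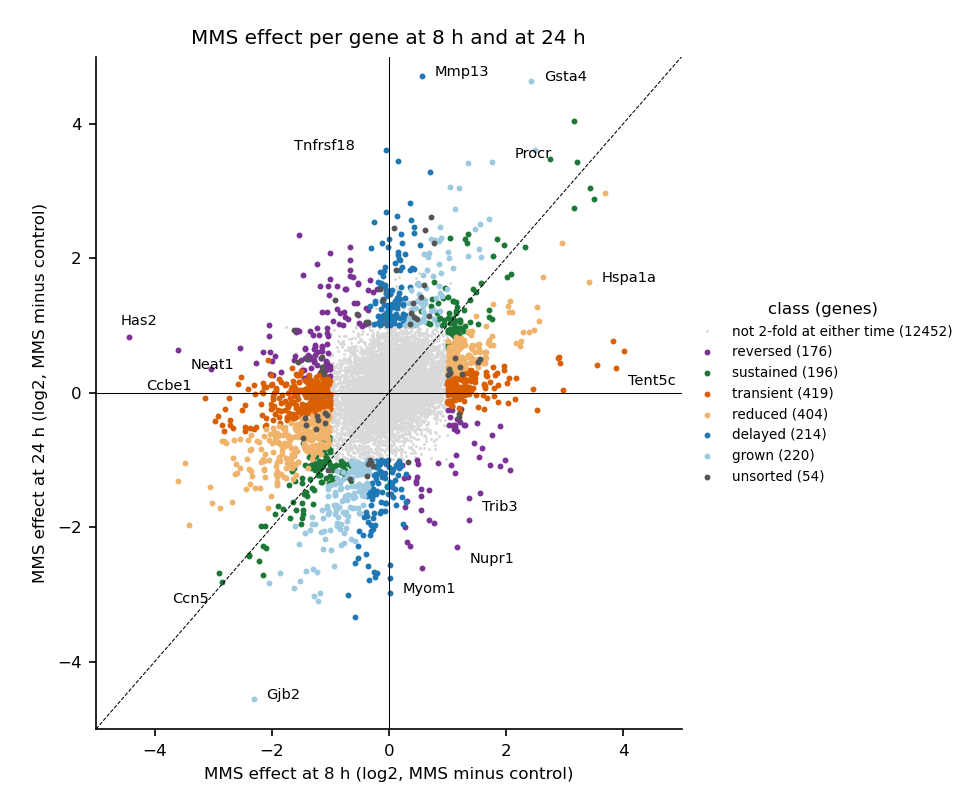
MMS effect of each of the 14135 genes tested at 8 h (horizontal axis, log2) and at 24 h (vertical axis, log2), coloured by response class with the number of genes; the dashed line marks equal effects. Transient genes lie along the horizontal axis, delayed genes along the vertical axis, sustained genes along the dashed line, and the 176 reversed genes in the upper left and lower right.

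In the reversed class, 56 genes were higher after MMS at 8 h and lower at 24 h, and amino acid response genes led them. Nupr1 encodes a small nuclear protein induced by many stresses, and Trib3 a pseudokinase that is induced by ATF4 and the factor CHOP and restrains them. The log2 signal of Nupr1 at 8 h was 10.72, 10.29, 10.65 and 10.54 on the control arrays and 11.76, 11.63, 11.74 and 11.73 on the MMS arrays. At 24 h it was 11.73, 11.82, 11.74 and 11.87 in control and 9.51, 9.44, 9.53 and 9.54 in MMS-treated cells. The groups did not overlap at either time, but the order was turned, and treated cells at 8 h had about the level of control cells at 24 h. Nupr1 in control cells was 11.68 at 0 h and 11.44 at 1 h. Both were above the 8 h controls and near the treated cells of 8 h. At 8 h Nupr1 was higher by 2.24-fold (adjusted p = 5.8e-13) and at 24 h 4.88-fold lower (adjusted p = 4.9e-19), a change of the effect of -3.45 with a standard error of 0.12. Trib3 had log2 signals of 8.24, 8.47, 8.44 and 8.53 in control and 10.00, 9.57, 9.83 and 9.77 in MMS-treated cells at 8 h, and 9.10, 9.34, 9.35 and 9.30 against 7.26, 7.14, 7.79 and 7.37 at 24 h. Its groups also lay apart at both times in opposite order. It was 2.59-fold higher at 8 h and 3.69-fold lower at 24 h, and the change of the effect was -3.26 with a standard error of 0.15 (adjusted p = 1.3e-16).

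The next genes of this group by size were Apobr, a lipoprotein receptor (2.06 at 8 h and -1.14 at 24 h, log2), Atf5, a transcription factor of the same stress response (0.56 and -2.60), Adm, the vasodilator peptide adrenomedullin (1.57 and -1.49), and Acot2, a mitochondrial acyl-CoA thioesterase (1.99 and -0.99). In Apobr, Atf5, Adm and Acot2 control cells differed by 0.01 to 0.46 (log2) between 8 h and 24 h, while treated cells fell by 2.58 to 3.14. For Nupr1 the control cells had risen too, by 1.24, and treated cells fell by 2.21.

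The ATF4 programme as a whole turned over. Of 30 genes of the ATF4 response tested, 20 were higher and 2 lower after MMS at 8 h (median log2 effect 0.62), and 2 were higher and 23 lower at 24 h (median -0.91), while the medians over all genes were 0.06 and 0.01. The effect was lower at 24 h for 27 and higher for none, with a median change of -1.69, and 14 of the 30 were in the reversed class. The mean log2 signal of the list was 9.13 to 9.21 on control and 9.95 to 10.03 on MMS arrays at 8 h, and 9.28 to 9.41 against 8.44 to 8.62 at 24 h, with no overlap at either time. Among the transcription factors, Atf4 itself was at 0.17 and -1.10 and Ddit3, which encodes CHOP, at 1.90 and -1.08, a change of -2.98 with a standard error of 0.08 (adjusted p = 3.7e-21). Atf3, a repressor and feedback factor, was at 2.92 and 0.44, the latter with no call. Among enzymes, asparagine synthetase (Asns) was at 0.55 and -1.53, phosphoserine phosphatase (Psph) at 0.69 and -1.89, and the mitochondrial folate enzyme Mthfd2 at 0.35 and -2.28. Among amino acid transporters, the leucine carrier Slc7a5 was at 0.76 and -1.93, the arginine carrier Slc7a3 at 1.59 and -0.82 and the glycine carrier Slc6a9 at 1.5 and -0.45. Psat1 and Aldh18a1, for serine and proline synthesis, were delayed: their effects were 0.08 and 0.25 at 8 h and -1.55 and -1.94 at 24 h. Slc7a11, the cystine carrier that NRF2 also controls, stood apart from the rest at 3.70 and 2.97. Slc7a11 and Cebpb (0.50 and 0.31) were the 2 members called higher at 24 h.

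The cytosolic aminoacyl-tRNA synthetases, which load amino acids onto tRNAs and include several ATF4 targets, moved the same way with smaller effects. Of the 19 genes tested, 10 were higher and 1 were lower at 8 h, while 4 were higher and 13 lower by 24 h, and the effect was lower at 24 h for 13 and higher for 1, with a median change of -0.82. The largest changes were those of Aars (0.98 at 8 h and -0.98 at 24 h), Tars (0.45 and -0.90) and Wars (1.09 and -0.26), for alanine, threonine and tryptophan. In Aars treated cells differed by 0.0011 between the times and control cells rose by 1.96. Control cells of 0 h and 1 h were at 12.05 and 12.08 in Aars, above both groups of 8 h. Qars, the member whose effect was higher at 24 h, was at 0.05 and 0.27.

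Sequence near the start sites of 4 reversed genes is shown because ATF4 pairs with C/EBP factors on an element whose core is written here as TGATGNAA, where N is any base, searched on both strands. The stretches hold up to 35 bases on each side of the match, whose letters are in capitals, and are RefSeq sequence of build GRCm38.p6 given in the direction of the gene. They are Trib3 (chr2:152344011-152344081, minus strand), Asns (chr6:7693190-7693267, minus strand), Nupr1 (chr7:126625538-126625615, minus strand) and Slc1a4, a carrier of neutral amino acids (chr11:20332675-20332752, minus strand).
Trib3: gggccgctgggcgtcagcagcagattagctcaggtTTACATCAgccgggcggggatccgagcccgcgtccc
Asns: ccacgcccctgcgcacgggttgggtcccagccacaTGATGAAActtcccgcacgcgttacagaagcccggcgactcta
Nupr1: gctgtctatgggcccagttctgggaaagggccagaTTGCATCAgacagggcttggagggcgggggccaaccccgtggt
Slc1a4: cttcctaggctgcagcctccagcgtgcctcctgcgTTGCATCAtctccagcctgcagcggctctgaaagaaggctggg

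This core was in 7 of the 50 windows found for genes higher and then lower, 14.0%, in Asns, Fgf21, Herpud1, Nupr1, Rab39b, Slc1a4 and Trib3. A window runs from 250 bases before to 50 after the start site. The core was in 26.92% of 26 windows of the ATF4 list and in 41.67% of 12 of the synthetases, against 2.27% of the 11317 windows of all genes tested and 4.06% of 27025 windows of any gene. Genes lower and then higher had it in 1.12% of 89 windows. A match is a description of these letters and not of a bound factor, and a window without it says only that the letters are not there. Parts of the set share the ATF4 list, so the shares are not independent.

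Most genes of ER quality control were higher at 8 h, and fewer were at 24 h. Of 20 ER chaperones and folding enzymes, 16 were higher and 1 lower at 8 h (median 0.61) and 7 were higher and 7 lower at 24 h (median -0.09), and the effect was lower at 24 h for 18 and higher for none. The largest changes were in Sdf2l1, a component of ER chaperone complexes (1.52 and -0.21), Dnajb9, a co-chaperone of the ER HSP70 (2.26 and 0.78), and Creld2 (1.66 and 0.26). Hspa5, which encodes that HSP70, BiP, was at 0.79 and -0.58. Of 19 genes of ER-associated degradation and UPR regulation, 14 were higher and none lower at 8 h, while 3 were higher and 12 lower by 24 h, and the effect was lower at 24 h for 16 and higher for 2. Herpud1, which organises the degradation complex, went from 1.37 to -1.56 (change -2.93, standard error 0.15, adjusted p = 2.2e-15), Sel1l, its adaptor, from 1.14 to -0.51 and the ubiquitin-conjugating enzyme Ube2g2 from 0.86 to -0.64. Of the factors of the other UPR branches, Xbp1 and Atf6 had no call at 8 h and were lower at 24 h, with Xbp1 at 0.16 and -1.22 and Atf6 at 0.11 and -0.67. Ufd1 and Derl2, the members with a higher effect at 24 h, were at 0.28 and 0.63, and at 0.03 and 0.24, but the other probe set of Ufd1 went down, from 0.88 to 0.16.

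Most cytosolic heat shock genes were still higher at 24 h. Of the 24 genes tested, 22 were higher and 1 were lower at 8 h (median 0.69), and 20 were higher and 1 lower at 24 h (median 0.37), with a lower effect at 24 h for 12 and a higher one for 1. Hspa1a, the inducible HSP70, had the largest change among the reduced higher genes, at 3.42 and 1.65, a change of -1.77 with a standard error of 0.13 (adjusted p = 2e-12). Hspa1b, at 1.36 and 0.09, is nearly identical in sequence, and array probes may not tell the pair apart. Hspb8, a small heat shock protein, was at 1.68 and 0.25, its partner Bag3 at 1.38 and 0.44, and Hspb1, another small heat shock protein, was sustained at 1.15 and 0.84. Cryab, alpha-B crystallin, was the member whose effect grew, from 1.09 to 1.86, though another probe set was at 1.68 and 1.71. Promoter stretches of Hspa1a, Hspb1 and Bag3 are shown because heat shock factors bind inverted repeats of a short unit, written here as GAANNTTC and set in capitals. They are RefSeq sequence of GRCm38.p6 for Hspa1a (chr17:34972218-34972295, minus strand), Hspb1 (chr5:135887767-135887864, plus strand) and Bag3 (chr7:128523590-128523632, plus strand).
Hspa1a: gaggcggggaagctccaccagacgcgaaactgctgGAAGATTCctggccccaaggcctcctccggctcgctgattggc
Hspb1: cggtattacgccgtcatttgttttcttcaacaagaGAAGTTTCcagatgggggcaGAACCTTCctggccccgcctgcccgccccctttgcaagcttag
Bag3: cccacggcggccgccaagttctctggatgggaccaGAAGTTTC

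The repeat was found in 47.62% of 21 windows of the heat shock list, against 5.76% of the windows of all genes tested, 7.95% of all windows and none of 18 windows of the ER chaperones. The letters read the same on both strands. Sustained Hspb1, reduced Hspa1a and Bag3 and transient Hspb8 and Hspa1b all held them.

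**Figure D2:**
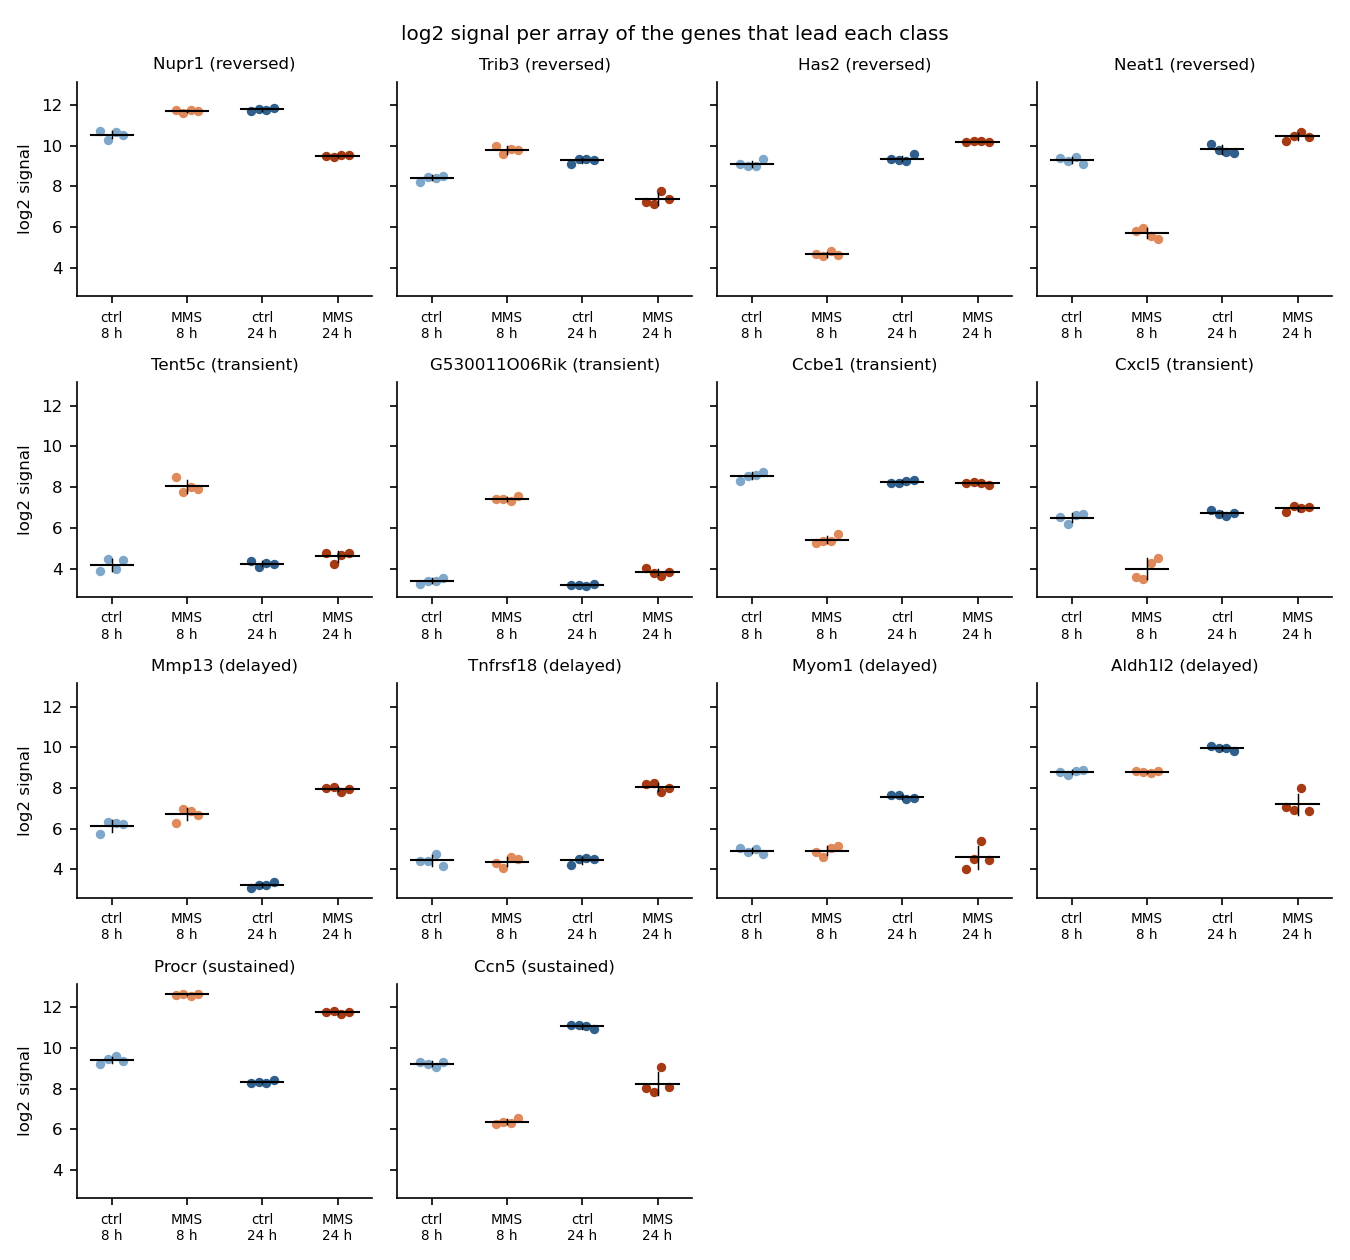
Log2 signal on each of the 16 arrays (points) with group mean (horizontal bar) and SD over 4 arrays (vertical bar) for the 14 genes that lead the reversed, transient, delayed and sustained classes. Nupr1 and Trib3 are above control at 8 h and below it at 24 h, Has2 and Neat1 the reverse, Tent5c to Cxcl5 differ from control at 8 h, Mmp13 to Aldh1l2 at 24 h, and Procr and Ccn5 at both times.

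The other 120 reversed genes were lower after MMS at 8 h and higher at 24 h. Has2, which makes hyaluronan of the matrix, and Neat1, the long noncoding RNA on which nuclear paraspeckles form, had the largest changes. Has2 had log2 signals of 9.09, 9.02, 8.99 and 9.33 in control and 4.69, 4.55, 4.84 and 4.62 in MMS-treated cells at 8 h, and 9.35, 9.28, 9.27 and 9.58 against 10.16, 10.22, 10.23 and 10.19 at 24 h. The groups lay apart at both times, and the treated cells at 8 h were far below every other group. Has2 was lower by 21.6-fold at 8 h (adjusted p = 1.7e-23) and higher by 1.78-fold at 24 h (adjusted p = 2.3e-07), and the change of the effect, 5.26 with a standard error of 0.16, was the largest of all genes tested. Neat1 had 9.39, 9.24, 9.43 and 9.11 in control and 5.82, 5.97, 5.57 and 5.42 in MMS-treated cells at 8 h, and 10.10, 9.81, 9.69 and 9.66 against 10.24, 10.48, 10.69 and 10.41 at 24 h. The groups again did not overlap, though at 24 h they came close. Neat1 was 12.1-fold lower at 8 h and 1.56-fold higher at 24 h (adjusted p = 0.0052). Fgf7, keratinocyte growth factor, was at -3.03 and 0.35, Osbpl3, an oxysterol binding protein, at -2.54 and 0.66, and Abca1, the cholesterol exporter, at -1.47 and 1.75. The other probe sets of Abca1 were at 0.35 and 1.12, and at 0.11 and 1.00, so its reversal rests on 1 of 3 probe sets, and a second probe set of Neat1 was at -0.41 and -0.10. In Has2, Neat1, Fgf7, Osbpl3 and Abca1 control cells moved by -0.26 to 0.89 and treated cells rose by 2.94 to 5.53. Dynap, a membrane protein that binds dynactin, was different: its effect went from -1.53 to 2.34 while control cells fell by 4.48 and treated cells by 0.61. In control cells Dynap was 3.59 at 0 h, 3.86 at 1 h, 8.56 at 8 h and 4.08 at 24 h. All of these means but that of 8 h were under the limit of the filter. The part of other cells in the values of Dynap was not tested.

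BMP and TGF-beta feedback genes were mostly lower at 8 h and split at 24 h. Of 19 tested, 16 were lower and 1 higher at 8 h (median -0.98), 7 were higher and 8 lower at 24 h (median 0.08), and the effect was higher at 24 h for 13 and lower for 2 (median change 0.67). The ID proteins, which BMP signals induce and which block basic helix-loop-helix factors, changed most. Id2 went from -1.01 to 1.70 (change 2.71, standard error 0.17, adjusted p = 1.8e-13), Id4 from -2.03 to 0.61 and Id1 from -0.99 to 0.88. For Id1, Id2 and Id4 control cells fell by 1.11 to 1.96 between the times and treated cells rose by 0.75 to 0.79, so both sides contributed. The inhibitors Smad6 (-1.42 and 0.20), Bambi (-1.45 and -0.35) and Grem1 (-1.34 and 0.20) were transient. The ligands did not follow: Bmp4 was sustained at -2.38 and -2.43, and Tgfb3 was at -2.06 and -1.71. The effect of Tgfb2 went further down, from -0.90 to -1.67. Early response genes were mixed, with 13 higher and 11 lower of 29 at 8 h, against 13 higher and 3 lower at 24 h. The change was higher for 12, led by the transcription factors Klf2 (-2.84 and -0.48) and Egr3 (-1.97 and -0.0017) and by the ERK phosphatase Dusp6 (-1.54 and 0.16), and lower for 5, led by the RNA-binding Zfp36 (0.73 and -0.06).

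The transient class held 157 genes higher and 262 lower at 8 h. Tent5c, a poly(A) polymerase, and the RIKEN transcript G530011O06Rik were the first of the higher ones. Tent5c had log2 signals of 3.86, 4.46, 3.97 and 4.39 in control and 8.51, 7.76, 8.03 and 7.89 in MMS-treated cells at 8 h, and 4.36, 4.10, 4.28 and 4.22 against 4.77, 4.21, 4.68 and 4.75 at 24 h. At 8 h the groups were far apart, and at 24 h they overlapped, with 1 treated array below 3 of the control arrays. At 8 h Tent5c was at least 12.4-fold higher (adjusted p = 4.5e-19), and its effect at 24 h, 0.36, had an adjusted p of 0.053. G530011O06Rik had 3.24, 3.41, 3.40 and 3.54 in control and 7.42, 7.4, 7.31 and 7.56 in MMS-treated cells at 8 h, and 3.19, 3.20, 3.16 and 3.22 against 4.03, 3.76, 3.65 and 3.84 at 24 h. It was at least 8.12-fold higher at 8 h, and the groups did not overlap at 24 h either (adjusted p = 4.2e-08), where both means were under the limit. The next were Dppa5a, a gene of pluripotent cells (3.56 and 0.42), Nefm, a neurofilament chain (3.83 and 0.77), Lce1l, of the cornified envelope of skin (2.98 and 0.04), and Gadd45a, the growth arrest and DNA damage gene (2.54 and -0.26). Control means of Nefm and Lce1l were under the limit of the filter at both times. Gadd45a had no call at 24 h (adjusted p = 0.096), and its relative Gadd45b went from 0.74 to 0.18.

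Among genes lower at 8 h alone, Ccbe1, a secreted protein of lymphatic vessel growth, and Cxcl5, a chemokine for neutrophils, came first. Ccbe1 had log2 signals of 8.32, 8.56, 8.61 and 8.74 in control and 5.27, 5.37, 5.34 and 5.67 in MMS-treated cells at 8 h, and 8.19, 8.21, 8.32 and 8.35 against 8.19, 8.24, 8.20 and 8.12 at 24 h. The groups lay apart at 8 h and overlapped at 24 h. Ccbe1 was 8.82-fold lower at 8 h (adjusted p = 2.3e-23), and at 24 h the effect was -0.08 with a standard error of 0.08. Cxcl5 had 6.52, 6.19, 6.61 and 6.69 in control and 3.6, 3.51, 4.29 and 4.54 in MMS-treated cells at 8 h, and 6.89, 6.68, 6.56 and 6.72 against 6.78, 7.05, 6.95 and 7.04 at 24 h. The treated arrays were spread over more than 1 log2 unit at 8 h but all lay below control, and at 24 h the groups overlapped. Cxcl5 was at least 4.19-fold lower at 8 h, and its 24 h level was 1.18-fold that of control, the latter with an adjusted p of 0.25. Ankrd44 (-2.57 and 0.13), the potassium channel subunit Kcnab1 (-2.92 and -0.34) and the transcription factor Mecom (-2.80 and -0.24) followed, as did the acute phase protein Saa3 (-2.73 and -0.08). Control cells fell by 4.17 in Saa3 between the times, beside the fall of the macrophage markers, and the part of other cells in its values was not tested.

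Chemokines and cytokines were more often lower than higher at 8 h. Of the 24 genes tested, 3 were higher and 9 were lower at 8 h, while 8 were higher and 6 lower by 24 h, and the effect was higher at 24 h for 9 and lower for 2. The monocyte chemokines Ccl2 (-1.56 and 0.05) and Ccl7 (-2.45 and -0.50) and the cytokine Il6 (-1.85 and -0.15) were lower at 8 h. Ptges, which makes prostaglandin E2, was reversed at -0.83 and 1.19. Cxcl2, at 2.02 and 0.15, and Ccl20, at -0.14 and -1.06, went the other way. Control means of Cxcl2 were under the limit of the filter at both times. Mmp12, the macrophage elastase, was at 2.46 and 0.06, and control cells fell by 2.71 between the times, beside the fall of the macrophage markers, whose part in this value was not tested. At 24 h the means of Mmp12 were 3.31 in control and 3.37 in treated cells, both under the limit of the filter.

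Mitosis genes were low after MMS at 8 h and mostly not at 24 h. Of 48 tested, 41 were lower and 1 higher after MMS at 8 h (median -0.89), and 15 were higher and 2 lower at 24 h (median 0.18). The effect was higher at 24 h for 44 and lower for 1, with a median change of 0.96 against -0.03 over all genes, and 16 of the 48 were in the transient class. The mean log2 signal of the list was 8.32 to 8.38 on control and 7.50 to 7.59 on MMS arrays at 8 h, and 9.0 to 9.11 on control and 9.08 to 9.26 on MMS arrays at 24 h. At 8 h the treated arrays lay below control and at 24 h the ranges overlapped, while the level had risen in both. The checkpoint kinase Bub1 went from -1.58 to 0.29 (change 1.87, standard error 0.22, adjusted p = 3.3e-08), the spindle protein Nusap1 from -1.13 to 0.67 and the spindle motor Kif11 from -1.66 to 0.08. Cyclins B2 and A2 (Ccnb2 and Ccna2) were at -1.30 and -0.0047, and at -1.28 and -0.10, and polo-like kinase Plk1 was at -1.33 and -0.24. Tpx2, a spindle assembly factor and the 1 member with a lower effect at 24 h, was at 0.46 and 0.07. Mitotic promoters often hold the cell cycle homology region, whose core TTTGAA is shown in capitals, as such or as its reverse complement, for Kif11 (chr19:37376328-37376403, plus strand), the kinetochore protein Cenpf (chr1:189688044-189688119, minus strand) and Ube2c (chr2:164769865-164769940, plus strand), an enzyme of cyclin destruction, again as RefSeq sequence of GRCm38.p6.
Kif11: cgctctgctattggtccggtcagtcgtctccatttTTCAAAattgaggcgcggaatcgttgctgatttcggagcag
Cenpf: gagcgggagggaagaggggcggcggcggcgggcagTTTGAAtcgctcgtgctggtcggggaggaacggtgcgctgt
Ube2c: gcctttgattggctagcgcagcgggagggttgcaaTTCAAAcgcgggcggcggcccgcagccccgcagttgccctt

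The core was in 71.79% of 39 windows of the mitosis list, against 12.15% of windows of all genes tested and 18.11% of all windows. The effects of these 3 genes were -1.66 and 0.08 (Kif11), -1.55 and -0.10 (Cenpf), and -1.11 and 0.39 (Ube2c).

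DNA replication genes were split at 8 h and mostly higher at 24 h. Of the 39 genes tested, 11 were higher and 15 were lower at 8 h (median -0.13), and 33 were higher and 1 lower at 24 h (median 0.45), with a higher effect at 24 h for 26 and a lower one for 1. Thymidine kinase Tk1 (-1.93 and 0.08), the DNA polymerase alpha subunit Pola1 (-1.45 and 0.0022) and the ribonucleotide reductase subunit Rrm2 (-0.46 and 1.00) changed most. Rpa2, a subunit of the protein that covers single-stranded DNA, was the exception at 0.92 and 0.44. Homologous recombination and Fanconi genes went from 1 higher and 9 lower of 23 at 8 h to 14 higher and 1 lower at 24 h, with a higher effect for 12 and a lower one for none, as in Mre11a (-0.33 and 0.66). Of 20 genes of base excision and direct alkylation repair, 6 were higher and 4 lower at 8 h, against 11 higher and 1 lower at 24 h. The effect of the glycosylase Neil1 went from -0.30 to 0.74 and that of the uracil glycosylase Ung from 0.48 to -0.68. Histone and chromatin assembly genes, 12 in all, were split at both times, with 4 higher and 3 lower in the change, as in the DNA methyltransferase Dnmt1 (-0.65 and 0.32) and H2ax (-0.08 and -0.65).

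Most p53 targets were higher at both times. At 8 h 20 of the 32 tested rose and 2 fell, and at 24 h 24 rose and 1 fell, both with a median of 0.40, and the effect was higher at 24 h for 9 and lower for 9. Over all genes tested the effect was higher at 24 h for 23.3% and lower for 22.2%. Genes with a lower effect at 24 h included the stress gene Sesn2 (1.06 and 0.26), the metabolic phosphatase Tigar (0.95 and 0.34) and the cell cycle inhibitor Cdkn1a (0.80 and 0.36). Genes with a higher one included the membrane protein Perp (0.15 and 2.10), the reductase Dcxr (-0.14 and 1.63) and Mdm2, which degrades p53 (0.57 and 1.36). In Sesn2 control cells of 0 h and 1 h, at 9.15 and 8.41, were above both groups of 8 h. Trp53inp1 was at 1.66 and 1.00 by the probe set used and at 0.95 and 0.98 by its other probe set, so the call for its change rests on 1 of the 2.

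**Figure D3:**
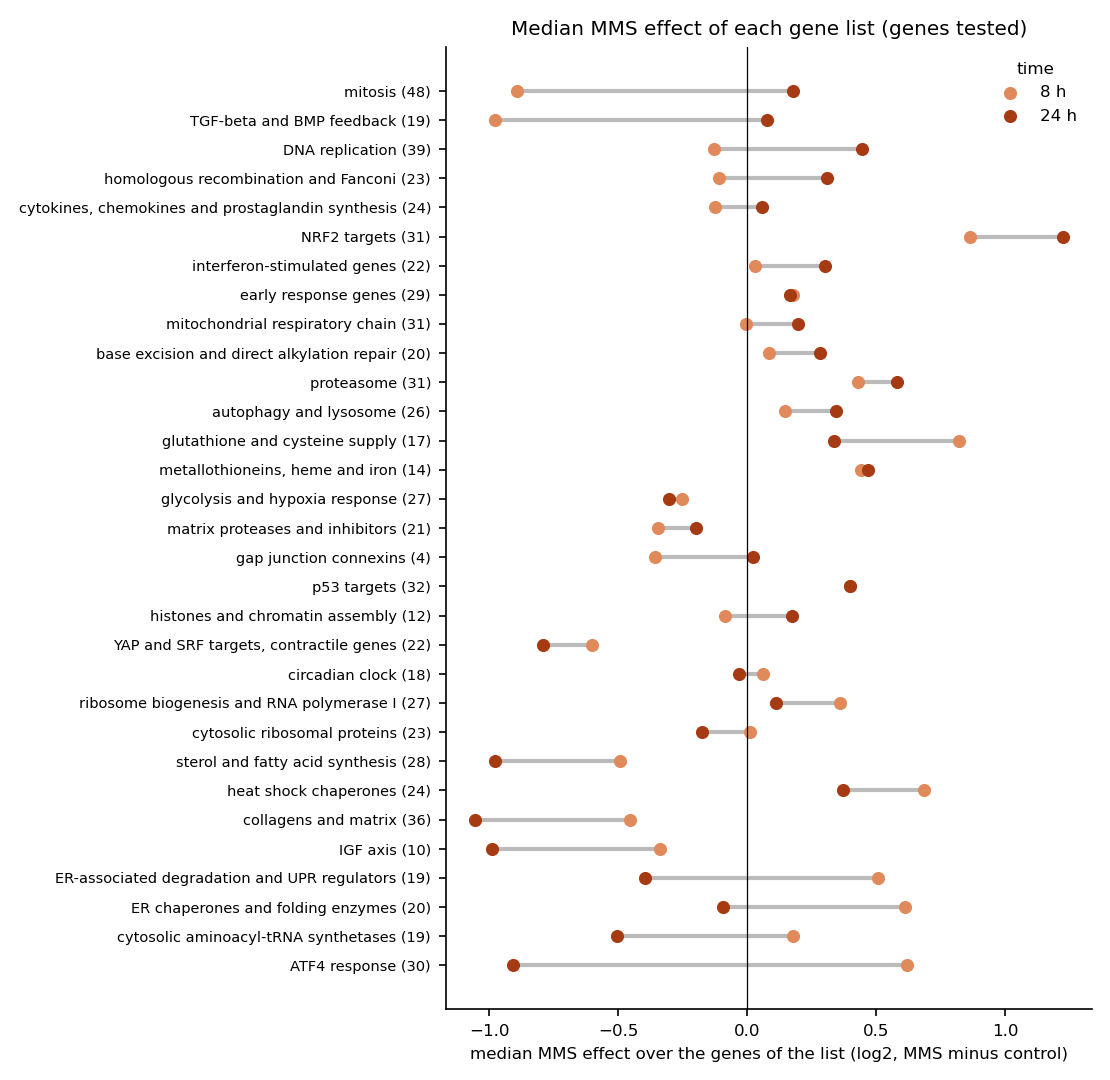
Median MMS effect (log2, MMS minus control) of 31 gene lists at 8 h (light points) and 24 h (dark points), ordered by the median change of the effect, with the number of genes tested in parentheses. ATF4, tRNA synthetase and ER lists lie right of 0 at 8 h and left of it at 24 h, mitosis and TGF-beta and BMP feedback genes are far left at 8 h and near 0 at 24 h, and NRF2 targets are right of 0 at both times.

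The delayed class held 109 genes higher and 105 lower at 24 h. Mmp13, a collagenase, and Tnfrsf18, the TNF receptor family member GITR, led the higher ones. Mmp13 had log2 signals of 5.71, 6.31, 6.27 and 6.21 in control and 6.30, 6.94, 6.88 and 6.67 in MMS-treated cells at 8 h, and 3.09, 3.21, 3.23 and 3.37 against 7.99, 8.03, 7.82 and 7.94 at 24 h. The groups overlapped at 8 h and lay far apart at 24 h, and control cells had fallen by 2.90 in between. Control cells of 0 h and 1 h were at 3.34 and 3.44, near those of 24 h, so the 8 h controls stood apart. Mmp13 was higher by 1.48-fold at 8 h (adjusted p = 0.029) and by at least 11.7-fold at 24 h (adjusted p = 5.9e-17), so that the larger part of the change of the effect, 4.15 with a standard error of 0.31, came from control cells. Tnfrsf18 had 4.43, 4.41, 4.76 and 4.14 in control and 4.30, 4.09, 4.62 and 4.51 in MMS-treated cells at 8 h, and 4.2, 4.49, 4.57 and 4.52 against 8.20, 8.25, 7.81 and 7.97 at 24 h. Only the treated cells at 24 h stood out among these 4 groups. At 24 h Tnfrsf18 was higher by 12.2-fold (adjusted p = 1.3e-18), with an effect of -0.06 at 8 h.

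Cd68, a lysosomal membrane protein and macrophage marker, was next (0.15 and 3.45, with control cells down by 3.70 and treated cells by 0.41). Of the 16 macrophage markers tested, 9 had a higher effect at 24 h and none a lower one, but 13 had no call at 24 h, and 3 were higher there. Lyz2, the lysozyme of macrophages, was at -0.50 and -0.07 with control cells down by 6.32, and the macrophage growth factor receptor Csf1r was reversed at -1.23 and 1.92. Other probe sets of Csf1r were at -0.95 and 0.62, and at -0.07 and 0.36. By the probe set used Csf1r fell by 3.99 in control and 0.84 in treated cells, and Lyz2 fell by 5.89 in treated cells. The mean of these markers in treated cells at 24 h was 5.69 on replicate 3 and 4.93 to 5.04 on the others, and the part of macrophages in these values was not tested. Apol8 (-0.26 and 2.54), the peroxisomal thiolase Acaa1b (-0.06 and 2.69) and the FGF binding protein Fgfbp3 (0.70 and 3.28) followed in the delayed class. Apol8 and Acaa1b were under the limit of the filter in both groups at 8 h and in control cells at 24 h.

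Genes below control at 24 h and not at 8 h were led by Myom1, a protein of the muscle M-band, and Aldh1l2, a mitochondrial enzyme of folate metabolism. Myom1 had log2 signals of 5.03, 4.83, 4.99 and 4.77 in control and 4.86, 4.61, 5.06 and 5.15 in MMS-treated cells at 8 h, and 7.63, 7.67, 7.46 and 7.51 against 4.02, 4.50, 5.37 and 4.47 at 24 h. The groups overlapped at 8 h, and at 24 h the control cells had risen by 2.66, while treated cells were at -0.33 between the times. Myom1 was 7.88-fold lower at 24 h (adjusted p = 1.2e-15). Aldh1l2 had 8.80, 8.63, 8.81 and 8.88 in control and 8.83, 8.77, 8.75 and 8.84 in MMS-treated cells at 8 h, and 10.08, 9.98, 9.97 and 9.81 against 7.04, 6.91, 7.98 and 6.88 at 24 h. Here control cells had risen by 1.18 and treated cells fallen by 1.60, and the groups overlapped at 8 h and not at 24 h. The highest treated value at 24 h in both genes was on replicate 3, the array with intestinal transcripts. Without this array and control 24 h replicate 4, the change of the effect was -3.27 in place of -2.99 for Myom1 and -3.08 in place of -2.77 for Aldh1l2. The matrix proteins Aspn (-0.57 and -3.34) and Abi3bp (0.03 and -2.57), the glutathione-degrading enzyme Chac1 (-0.24 and -2.74) and the smooth muscle calponin Cnn1 (-0.20 and -2.67) followed, and in Aspn and Abi3bp control cells rose by 3.67 and 4.05 and treated cells by 0.91 and 1.46. Replicate 3 was also the highest treated array at 24 h in Aspn, at 7.65 against 5.58 to 5.86 on the others. In Abi3bp it was at 6.32, against 4.54 to 4.71. Abi3bp at 8 h was under the limit of the filter in both groups, with means of 3.54 and 3.57. Control cells of 0 h and 1 h were at 8.34 and 8.36 in Abi3bp and at 7.96 and 8.31 in Myom1, above the 8 h controls at 3.54 and 4.90. In Aspn they were at 9.74 and 9.90, above the 8 h controls at 5.86.

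The MMS effect on matrix genes as a group was below 0 at 8 h and further below it at 24 h. Between the times the median change of the list was 0.42 in control and -0.01 in treated cells. Of 36 collagen and matrix genes, 27 were lower and 1 higher at 8 h (median -0.45) and 32 lower and 1 higher at 24 h (median -1.05). The effect was lower at 24 h for 25 and higher for 6, and 11 of the genes were in the grown class. Col3a1, of fibrillar collagen, went from -1.21 to -3.09, Fbln5, of elastic fibres, from -0.32 to -2.11 and Col6a2, of collagen VI, from -0.27 to -2.02. In Col3a1 and Col6a2 control cells rose by 1.87 and 1.33, while treated cells were at -0.01 and -0.43 between the times. Control cells of 0 h and 1 h were at 13.2 and 13.15 in Col3a1, above the 8 h controls at 11.37. In Col6a2 they were at 10.92 and 10.93, above the 8 h controls at 9.64. Treated Col3a1 at 24 h was 9.69, 9.66, 11.33 and 9.90, highest on replicate 3, the array with intestinal transcripts. Col11a1 (-2.68 and -1.62) went the other way, as did Has2 above. Col8a1 did so by the probe set used (-2.54 and -1.12), but its other probe sets had changes of -0.13 and -0.56. Of 22 YAP and SRF targets and contractile genes, 17 were lower and none higher at 8 h and 18 lower and 1 higher at 24 h. Of the smooth muscle genes, Cnn1 and Actg2 (-0.26 and -2.67) were delayed and Myl9 (-0.59 and -1.71) grew, and the YAP target Ankrd1 (-1.44 and 0.34) was reversed. Of 21 matrix proteases and inhibitors, 5 were higher and 12 lower at 8 h, against 5 higher and 10 lower at 24 h, with 6 higher and 7 lower in the change. Apart from Mmp13 and Mmp12, stromelysin Mmp3 went from -0.69 to 0.64 and the protease Adamts1 from -0.77 to -2.08.

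The MMS effects on sterol and fatty acid synthesis and the IGF axis also went further down. Between the times the median change of the synthesis genes was 0.36 in control and -0.04 in treated cells. For the IGF genes it was 0.78 in control and 0.05 in treated cells. Of 28 synthesis genes, 20 were lower and none higher at 8 h (median -0.49) and 26 lower and 1 higher at 24 h (median -0.98), with a lower effect at 24 h for 14 and a higher one for 2. The sterol enzymes Cyp51 (-0.06 and -1.63), Mvd (0.07 and -1.14) and Fdps (-0.32 and -1.53) changed most, and Acss2, which makes acetyl-CoA, was the 1 gene called higher at 24 h (-0.11 and 0.53). All 10 IGF genes were lower at 24 h, against 6 lower and 1 higher at 8 h. The binding protein Igfbp5 went from -1.28 to -3.02, and Igfbp3 from 0.63 to -0.47, whereas the receptor Igf1r recovered in part, from -1.66 to -0.96. Gjb2, connexin 26 of gap junctions, led the grown class among lower genes at -2.30 and -4.55, followed by Col3a1 and the carboxypeptidase Cpa6 (-1.17 and -2.98). Treated Gjb2 at 24 h was 7.45 on replicate 3, the array with intestinal transcripts, against 6.04 to 6.17 on the others. Of 4 connexins tested, 2 had a higher and 2 a lower effect at 24 h.

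**Figure D4:**
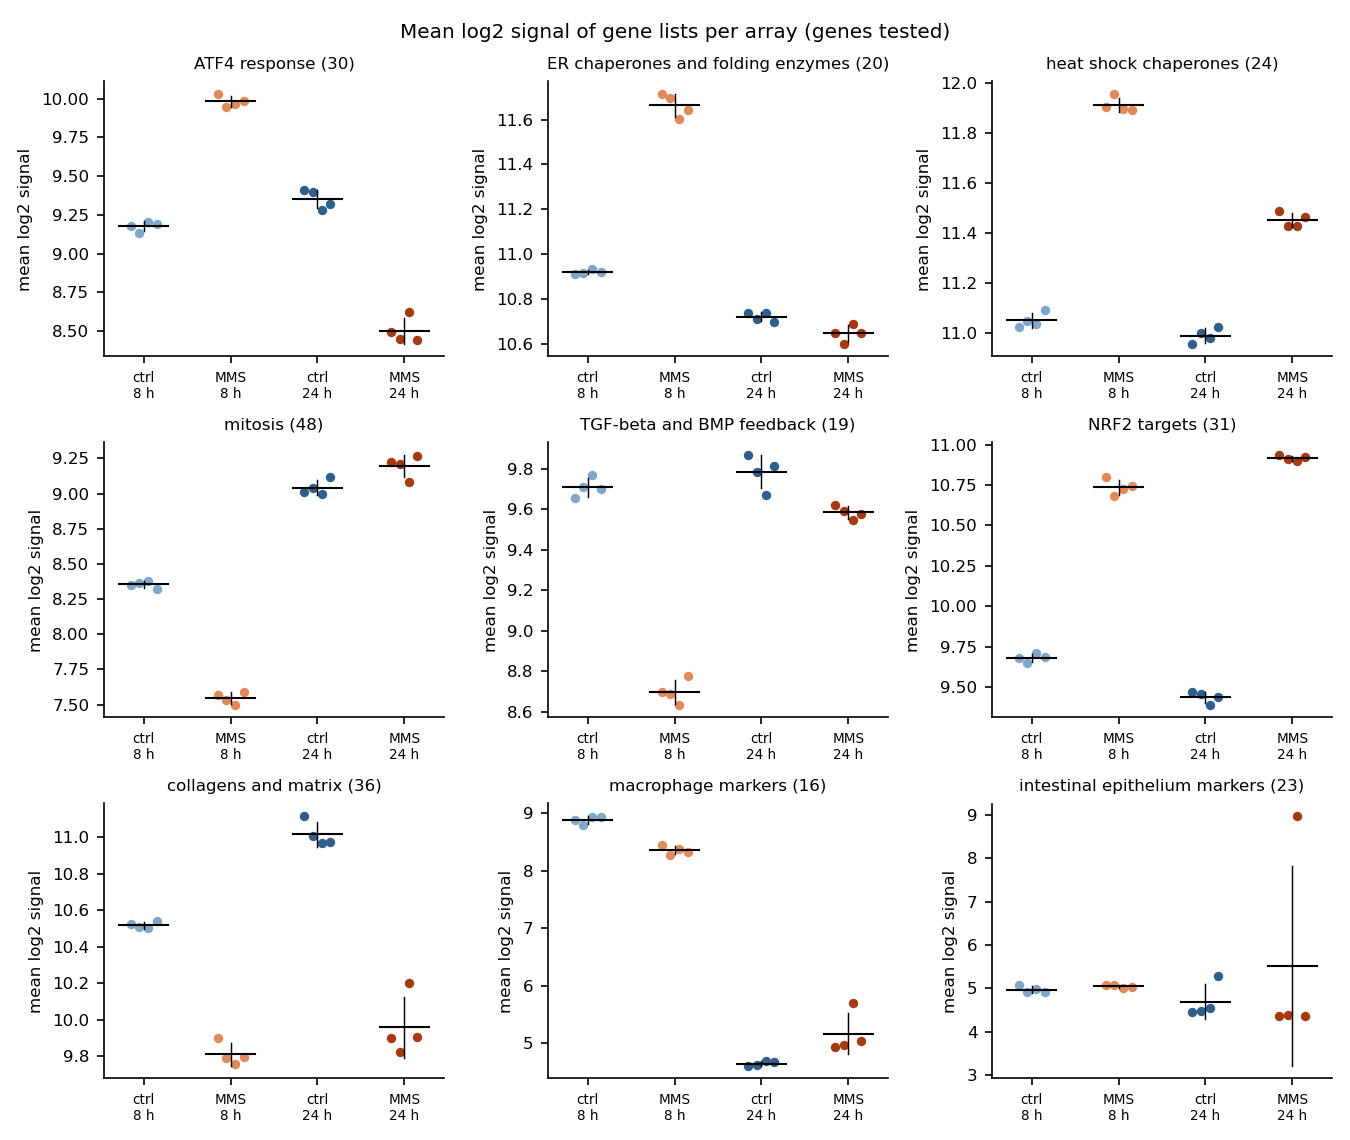
Mean log2 signal of 7 gene lists and 2 marker lists on each of the 16 arrays (points), with group mean (horizontal bar) and SD over 4 arrays (vertical bar); axes differ between panels and do not start at 0. ATF4 response genes are above control at 8 h and below it at 24 h, macrophage markers are high on all 8 h arrays, and 1 MMS array at 24 h is far above the others in intestinal markers.

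Among higher genes, the sustained class was led by Procr and the grown class by Gsta4, 1700007K13Rik (1.36 and 3.43) and Depdc7 (1.04 and 3.07). Procr, the endothelial receptor of protein C, had log2 signals of 9.24, 9.47, 9.59 and 9.35 in control and 12.61, 12.68, 12.57 and 12.66 in MMS-treated cells at 8 h, and 8.28, 8.35, 8.28 and 8.42 against 11.77, 11.84, 11.65 and 11.77 at 24 h. Treated cells were above control at both times by about the same step, though both groups were lower at 24 h. Procr was higher by 9.30-fold at 8 h and by 10.8-fold at 24 h, and the change of the effect was 0.21 with a standard error of 0.14 (adjusted p = 0.22). Lce1f (3.17 and 4.05), Lce1d (3.44 and 3.05) and Sprr1a (3.51 and 2.88), all of the cornified envelope, and the detoxifying genes Gsta2 (2.76 and 3.49) and Srxn1 (3.17 and 2.76) followed. Control means of Lce1d and Gsta2 were under the limit of the filter at both times. Lce1f was sustained by the probe set used alone, since its other probe set was at 4.46 and 1.24, a change of -3.23. A gene was called sustained where the change missed the threshold, which does not show that its effects were equal: changes of up to 1.26 in size occurred in this class.

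NRF2 targets were mostly higher at both times. Of the 31 genes tested, 22 were higher and 4 were lower at 8 h (median 0.87) and 27 were higher and none lower at 24 h (median 1.22), with a higher effect at 24 h for 13 and a lower one for 4. Gclc and Gclm, the subunits of the enzyme that begins glutathione synthesis, were sustained at 1.78 and 2.03, and at 1.97 and 2.20, with an adjusted p of 0.067 for the change in Gclc. Glutathione transferase Gsta4 (2.43 and 4.64), quinone reductase Nqo1 (1.76 and 3.43) and biliverdin reductase Blvrb (2.50 and 3.61) grew, and Mgst1 was delayed (0.43 and 2.47). Akr1b8, an aldo-keto reductase, was reversed at -0.27 and 1.5. Hmox1, heme oxygenase, fell back from 2.40 to 0.91 (change -1.49, standard error 0.21, adjusted p = 7.4e-07), Osgin1 from 1.96 to 0.39 and the autophagy receptor Sqstm1 from 1.71 to 0.78. Glul, glutamine synthetase, was at 1.06 and 0.49, with an adjusted p of 0.063 for the change. Genes of glutathione and cysteine supply, 17 in all, were 10 higher and 1 lower at 8 h, against 9 higher and 5 lower by 24 h. The effects of Slc1a4 (1.13 and -1.19) and Cth, of cysteine synthesis (1.14 and -0.92), went down, while those of Ggct (-0.15 and 1.09) and glutathione reductase Gsr (0.88 and 1.49) went up. Cth in control cells was 8.62 at 0 h and 8.71 at 1 h, near the 8.64 of treated cells at 8 h. The core of the NRF2 element, TGACNNNGC, was in 6 of 24 windows of the NRF2 list, against 14.44% of windows of all genes tested, and in as large or larger a share of the windows of the synthetases (3 of 12) and of the ATF4 list (34.62%).

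The first of the sustained lower genes was Ccn5, a secreted matrix-associated protein. It had log2 signals of 9.29, 9.22, 9.08 and 9.33 in control and 6.27, 6.37, 6.30 and 6.58 in MMS-treated cells at 8 h, and 11.14, 11.14, 11.06 and 10.91 against 8.05, 7.82, 9.06 and 8.07 at 24 h. The groups lay apart at both times, and replicate 3 was the highest treated array at 24 h. Ccn5 was 7.18-fold lower at 8 h and 7.03-fold lower at 24 h, and without the arrays with intestinal transcripts the change of the effect was -0.29 (adjusted p = 0.056) in place of 0.03. Ndnf (-2.90 and -2.68), the aggrecan-cleaving Adamts5 (-2.39 and -2.41), Bmp4 above, the transcription factor Sox11 (-2.21 and -2.51) and the myosin kinase Mylk (-2.15 and -2.72) followed. Control and treated cells both rose in Ccn5, Adamts5, Bmp4 and Sox11, by 1.57 to 2.75 and by 1.27 to 2.73. Control cells of 0 h and 1 h were at 11.26 and 11.08 in Ccn5 and at 11.14 and 11.09 in Adamts5. In Bmp4 they were at 10.11 and 10.13, and in Sox11 at 8.18 and 8.86. All were above the 8 h controls, at 9.23, 7.90, 7.74 and 7.15 in this order.

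Long genes were more often lower after MMS than short ones, more so at 8 h than at 24 h. The span of a gene is the distance from its first to its last base in RefSeq annotation of GRCm38.p6, known for 14061 of the genes tested, with a median of 21.9 kb. In the 659 genes over 200 kb the median effect was -0.47 at 8 h and -0.24 at 24 h, and 59.64% and 47.34% were called lower. In the 2803 genes of 10 to 20 kb the medians were 0.13 and 0.07, with 16.16% and 15.23% called lower. Median span was 79.4 kb in transient lower genes, 124.7 kb in reduced lower, 97.0 kb in sustained lower and 52.1 kb in grown lower genes, but 29.1 kb in delayed lower genes. Among higher genes it was 13.6 kb in transient, 14.5 kb in reduced, 16.7 kb in sustained, 17.8 kb in delayed and 17.0 kb in grown genes. Across genes, which are not independent replicates and share arrays, Spearman's rho of span with the effect was -0.24 at 8 h and -0.14 at 24 h, and 0.12 with the change.

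The same was seen on each array. The median log2 signal of genes over 100 kb minus that of genes under 10 kb was 0.11 to 0.18 on control and -0.57 to -0.45 on MMS arrays at 8 h. It was 0.67 to 0.74 on control and 0.27 to 0.41 on MMS arrays at 24 h. At each time all MMS arrays lay below all control arrays, but both groups were higher at 24 h, and the change with time in control cells was of the same order as the MMS effect at 8 h. Kcnab1, Mecom, Kif26b (-3.60 and -1.31) and Ccbe1 are examples with spans of 429, 558, 404 and 235 kb. Cxcl5, of 2.33 kb, Klf2, of 2.59 kb, and the pseudokinase Trib2 (-3.48 and -1.05), of 25.2 kb, were also lower at 8 h.

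**Figure D5:**
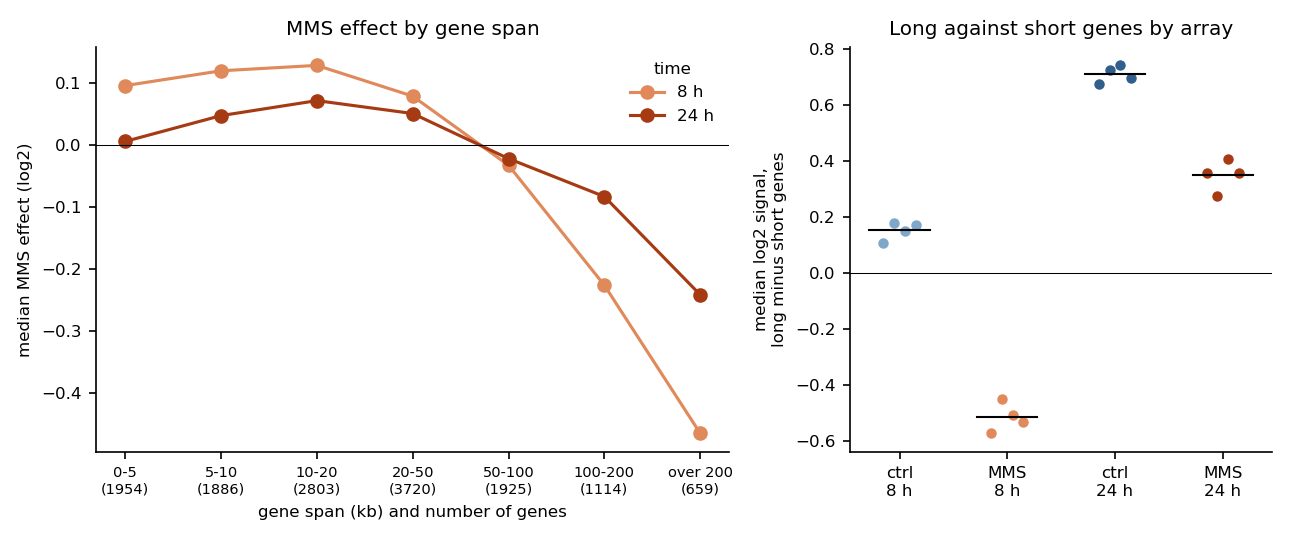
Left, median MMS effect at 8 h and 24 h (log2) of genes binned by span, with the number of genes per bin. Right, median log2 signal of genes over 100 kb minus that of genes under 10 kb on each array (points) with the group mean (bar), which is below control on the MMS arrays of both times.

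Other probe sets of some genes named above, each reaching the limit of the filter, showed smaller changes of the effect or none in the same direction. Such probe sets gave a change of -0.02 for Bub1, 0.06 for Kif11, -0.11 for Mre11a and 0.0031 for Tpx2. They gave -0.47 for Ddit3, -0.28 for Sel1l, -0.49 for Egr3 and 0.06 for Igfbp5. Values of Ankrd44 (-0.05), Mecom (0.19) and Trib2 (0.07) were likewise near 0. What sets these probe sets apart was not tested. Among genes called sustained, other probe sets of Adamts5 and Glul gave changes of -1.05 and 0.16.

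The remaining lists were as follows. Proteasome subunits were higher at both times, 28 of 31 at 8 h and all 31 at 24 h (medians 0.43 and 0.58), and the effect was higher at 24 h for 14 and lower for 1. The effect of Psmd11 went from 0.27 to 0.72, but its probe set with the largest variance gave a change of -0.32. Respiratory chain genes went from 1 higher and 6 lower of 31 to 17 higher and 1 lower, with a higher effect for 14 and a lower one for none, as in Uqcrc1 (-0.25 and 0.50). Ribosome biogenesis genes went from 18 higher and none lower of 27 to 10 higher and 1 lower, with a lower effect for 11 and a higher one for 2, as in the nucleolar Nop56 (0.54 and -0.11). Of 23 cytosolic ribosomal protein genes 1 was higher and 1 lower at 8 h, against 3 higher and 2 lower at 24 h. Of 26 autophagy and lysosome genes 12 were higher and 3 lower at 8 h, against 18 higher and 4 lower at 24 h, and the effect of the lysosomal enzyme Gla went from 0.48 to 1.61 (but from 1.62 to 0.82 by another probe set) and that of Gabarapl1, of the autophagosome membrane, from 1.40 to 0.25. Of 14 metallothionein, heme and iron genes 9 were higher and none lower at 8 h, against 5 higher and 2 lower at 24 h, and the zinc exporter Slc30a1 went from 0.78 to -0.31. Of 22 interferon-stimulated genes 2 were higher and 3 lower at 8 h, against 7 higher and none lower at 24 h, as in Usp18 (-0.05 and 1.53). Their median change of the effect was 0.25, and 0.13 without the 2 arrays with intestinal transcripts. With and without these arrays, 6 had a higher and none a lower effect at 24 h. Of 18 circadian clock genes 8 were higher and 3 lower at 8 h, against 2 higher and 2 lower at 24 h, and the clock factor Arntl went from -1.25 to -0.11. Glycolysis and hypoxia genes, 27 in all, were 2 higher and 16 lower at 8 h, against 3 higher and 14 lower by 24 h. There Pfkfb4, a regulator of glycolysis, was reversed at -0.88 and 1.58, opposite to Adm.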

How the data were processed

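Affymetrix mouse arrays of 35 samples were deposited as 1 table of log2 values, which the authors made by robust multi-array averaging (RMA); its version is not given in the sources used here. Of 45101 probe sets, 34958 had 1 gene symbol in the platform annotation, 932 several and 9211 none, and genes were named only from the first. The probe set with the highest mean stood for a gene, and a gene was tested where a group mean reached the 40th percentile (log2 4.40). Group means of all 35 arrays in 9 groups were fitted with limma 3.58.1 in R 4.3.3 (26 residual degrees of freedom, prior 2.99), with two-sided tests and Benjamini-Hochberg adjustment over 14135 genes. Calls were made at an adjusted p under 0.05. No 2 arrays held identical values. Array medians lay between 4.98 and 5.09.

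Genes were named by the largest change of the effect per response class and per gene list, provided for the classes that control and MMS arrays did not overlap where the effect was called and 2-fold, and Gclc, Glul and Gadd45b because the study names them. Further list members were chosen as examples after their values were seen. Members and lists were chosen with earlier results of these data known. Promoters are from RefSeq, and 7 motifs were searched. The alternatives were other normalizations, filters, probe set choices, models, class limits and left-out arrays. The fit was tested on simulated data. Figures were drawn with matplotlib 3.10.9. MMS 72 h replicate 4 was not analysed here.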

Additional observations from a re-analysis of the deposited data

Results flagged for a closer look

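The effect of MMS differed between 8 h and 24 h for 6442 genes by the test of the difference itself. Among 16 values in the 4 groups, 64 groups of 4 arrays were examined for 1 array far from the other 3, and 6 were found, where chance gives about 1 in 20. The values were the lead genes of the classes and the means of the macrophage and intestinal markers. Since lists were chosen with earlier results of these data known, the number found is not a measure against chance. In MMS 24 h replicate 3 the mean of the intestinal markers was 8.97, with 4.36 to 4.38 on the others, the mean of the macrophage markers was 5.69, with 4.93 to 5.04 on the others, and Aldh1l2 was 7.98, with 6.88 to 7.04 on the others. In control 24 h replicate 4 the mean of the intestinal markers was 5.29, with 4.46 to 4.56 on the others. Tent5c was 4.21 in MMS 24 h replicate 2, with 4.68 to 4.77 on the others. Mmp13 was 5.71 in control 8 h replicate 1, with 6.21 to 6.31 on the others.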

How the results depend on the processing

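Of 494 counts under 33 alternative settings, 474 stayed within 1.5 times the reported count. With a filter at the 60th percentile, 10628 genes were tested in place of 14135. Of these, 4083 in place of 6260 were lower at 24 h than at 8 h in treated cells, and the cause was not tested. Averaging each gene over its probe sets, 122 genes were sustained, 252 transient and 261 reduced, and the cause was not tested. Of 1623 sorted genes still tested, only 946 kept their class with these averages, and 5320 of the 6442 calls kept sign and call. Of 1629 sorted genes, 1399 kept their class with the probe set of largest variance. After a second quantile normalization 1397 of them did, and 1350 after centring. The class sizes follow their limits by construction. At 1.5-fold there were 502 reversed, 738 sustained, 1020 transient, 734 reduced, 533 delayed and 408 grown genes, and at 3-fold 48, 48, 129, 139, 75 and 96. With 50% in place of 25% of the effect, 695 were transient, 148 reduced, 360 delayed and 84 grown.

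Leaving out 1 array at a time gave 3120 to 3305 genes with a higher and 2949 to 3129 with a lower effect at 24 h. At 8 h, 3808 to 4087 genes were higher and 3347 to 3575 lower, and at 24 h 3193 to 3574 and 2557 to 2785. In control cells 3527 to 3768 were higher and 4560 to 4967 lower with time, and in treated cells 4435 to 4570 and 5993 to 6253. The classes held 164 to 181 reversed, 191 to 220 sustained, 408 to 434 transient, 384 to 411 reduced, 204 to 240 delayed and 209 to 237 grown genes.

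Of 6800 values of 215 named genes, 6662 kept direction and side of the threshold, 111 lost the call, 12 gained one and 15 turned. All that turned did so with another choice of probe set. With the mean of the probe sets the change of the effect was -0.054 for Axl, 0.57 for Epcam, -0.0085 for Psmd11, -0.11 for Scd2, 0.066 for Slbp and -0.18 for Ufd1. With the probe set of largest variance it was -0.94 for Axl, -0.56 for Col8a1, 1.64 for Epcam, -0.58 for Fech, -0.29 for Flt1, 0.32 for Ogg1, -0.32 for Psmd11, -0.72 for Scd2 and 0.028 for Trp53inp1.

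With the replicate number as a block, 3305 genes had a higher and 3163 a lower effect at 24 h. Arrays of the same number and time correlated at -0.26 to 0.16, above 0.1 in 3 of 8 pairs, and the same number correlated best in 5 of 24, so the numbers were not taken as pairs. Without the 2 arrays with intestinal transcripts 5734 of the 6442 calls remained with the same sign, and with only the 16 arrays less these 2, chosen after seeing the data, 5559 did. After rescaling, the median changes of the glutathione, glycolysis and metallothionein lists, all within 0.1 of 0, had another sign in at least 1 setting.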
